A study of Mus musculus with 4 samples.

Results

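The brain chondroitin sulfate proteoglycans and tenascins described here are 9 genes: the lecticans Bcan (brevican), Ncan (neurocan), Vcan (versican) and Acan (aggrecan), the membrane-spanning proteoglycans Cspg5 and Ptprz1, the link protein Hapln1, and the tenascins Tnc and Tnr. They were chosen by name, and every probe of the array named for one of them, controls left aside, was read on all 4 arrays. This gave 15 of 55648 usable probes and 9 of 22314 genes with a probe. Lecticans are secreted core proteins that carry chondroitin sulfate chains, bind hyaluronan at their amino-terminal end and bind tenascins at their carboxy-terminal end. Hapln1 locks the lectican to hyaluronan, and Tnr cross-links lecticans in the mature brain, while Tnc is the tenascin of the developing, injured and tumour-bearing brain. Neural progenitors and glia make much of this matrix, and the same proteins are known from glioma.

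RNA was taken from 4 cultures of mouse brain cells, with 1 single-colour array for each. NSC were p53-/- neural stem cells from E14.5 embryos, and NSC-Ceacam1L carried a vector expressing the long isoform of Ceacam1, an adhesion molecule of the immunoglobulin family. NSCL61, also p53-/- and labelled E14.5, is a line known to initiate glioma, derived by activating Ras in such stem cells, so it stands for 1 line, and NSCL61-Ceacam1sh were NSCL61 cells with a short hairpin RNA against Ceacam1. All 4 cultures thus lacked p53 and were kept without serum. Vectors were transfected and cells were held in hygromycin for 1 week, and the labels do not say whether NSC and NSCL61 carried an empty vector. The design compares NSC-Ceacam1L with NSC and NSCL61-Ceacam1sh with NSCL61 to look for genes downstream of Ceacam1, and NSCL61 can also be set against NSC. This last comparison shares the NSC array with the first and the NSCL61 array with the second.

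A level below is the log2 of the scanner's processed intensity minus the log2 of the 75th percentile of that array, so 0 is the 75th percentile. Higher or lower means a difference of at least 2-fold, which is 1 on the log2 scale, with the brighter of the signals passing the scanner software's test for being well above background. A gene dim on both arrays was not evaluated. The error after ± is the software's modelled error of the spots. There was 1 array per group and no replicate, so it covers no variation between cultures. For the same reason there are no p-values, and precision is limited by how few arrays there are. Between 27421 and 29552 probes were well above background per array, and the lowest such level lay between -4.85 and -4.27. No analysed probe was named for Ceacam1, so the labels could not be checked on the targeted gene, and NSCL61-Ceacam1sh, also called the hairpin array, means the array labelled so. The 4 arrays lay on 1 slide with 1 position each, and position and group cannot be told apart. In RNA of a whole culture, fewer cells of a type and less RNA per cell cannot be told apart either.

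Brevican, neurocan, Cspg5 and Ptprz1 were bright on the NSC, NSC-Ceacam1L and NSCL61 arrays and at or near background on the NSCL61-Ceacam1sh array. Vcan and Tnc went the other way between the last 2 arrays and were higher on NSCL61-Ceacam1sh. On the array with Ceacam1L, the tenascins parted, with Tnr higher and Tnc lower than on NSC. Acan barely left background and Hapln1 did not leave it on any array.

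**Figure D1:**
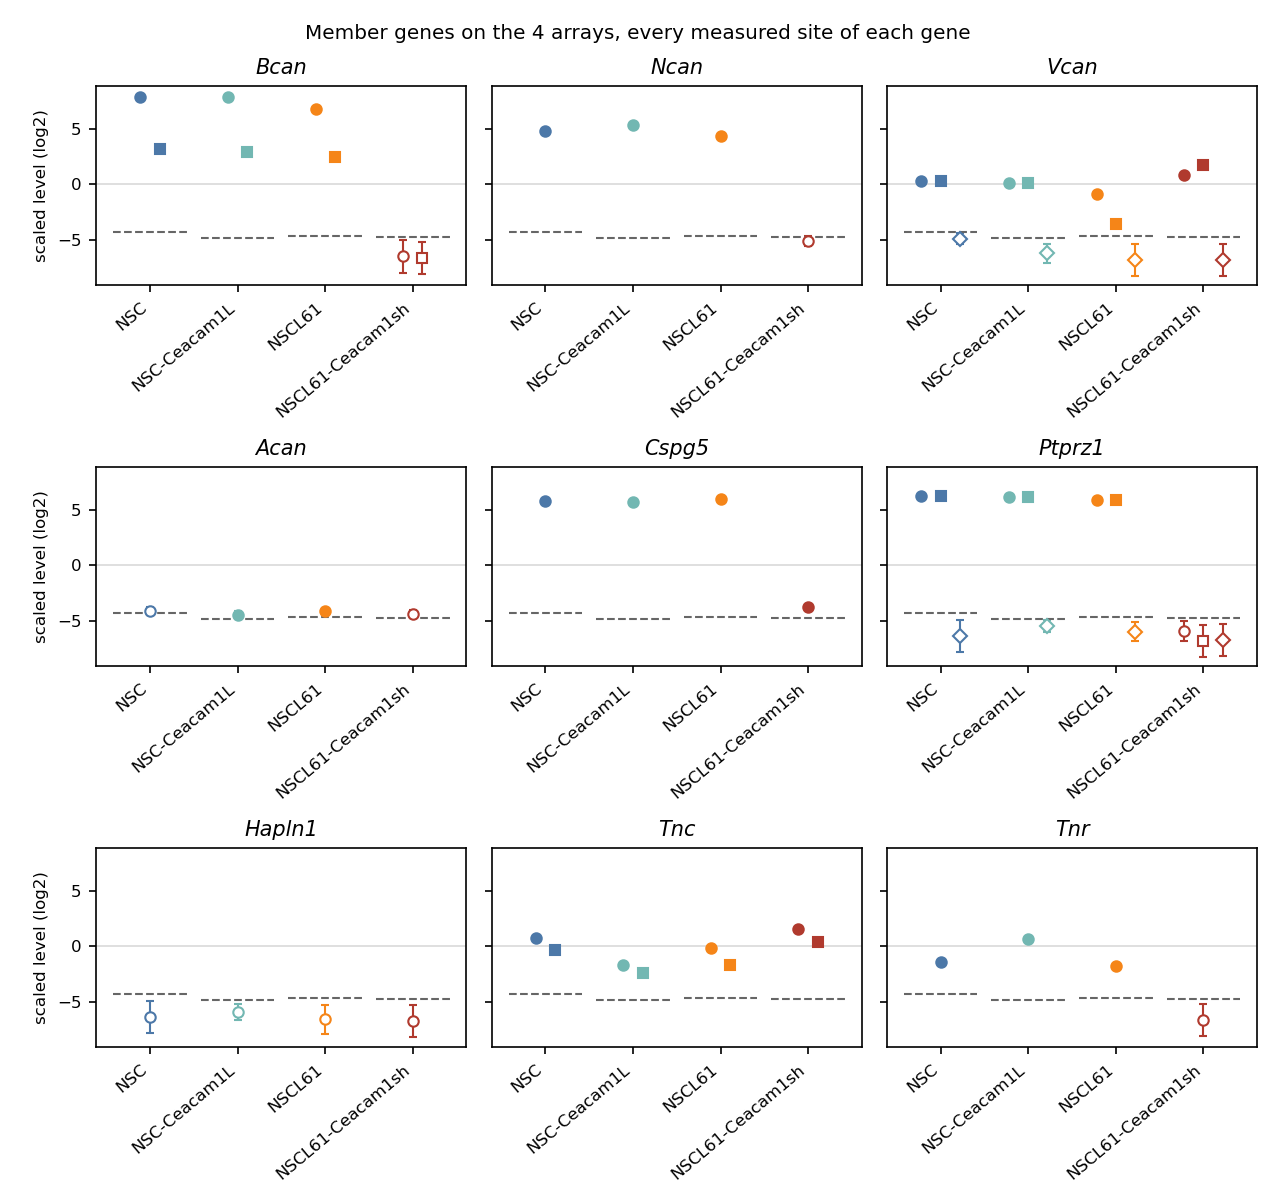
Scaled level (log2) of every probe of the 9 genes on the 4 arrays, with the modelled error as bars, which are shorter than the symbol for bright probes. Circles are the probe used for each gene, squares and diamonds its other probes, open symbols are not well above background, and dashed lines mark the lowest level well above background on each array. Bcan, Ncan, Cspg5 and Ptprz1 stand high on 3 arrays and at or near the dashed line on NSCL61-Ceacam1sh, where Vcan and Tnc have their highest points.

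The brevican probe used (A_55_P1971599, chromosome 3, 87791457 to 87791516, minus strand, mm9) read 7.87 on NSC, 7.82 with Ceacam1L added, 6.74 on NSCL61 and -6.49 on its hairpin array. In intensity units these were 112000, 128978 and 47036 on the first 3 arrays, and on the last one the scanner software had put in a stand-in for a signal too close to background. The NSC and NSC-Ceacam1L arrays did not differ beyond the error (-0.05 ± 0.20), NSCL61 was lower than NSC by more than it (-1.12 ± 0.20), and NSCL61-Ceacam1sh had no signal well above background. Against NSCL61, Bcan on NSCL61-Ceacam1sh was at least 2883-fold lower, a bound set by the lowest signal that passed the background test on that array. A second probe, listed with another RefSeq transcript of Bcan (A_55_P1971604), had 3.17, 2.91 and 2.41 and then -6.61, and was at least 143-fold lower by the same bound. Between NSCL61 and NSC this probe differed by -0.76 ± 0.20, short of 2-fold, so the 2 Bcan probes shared the direction but not the call.

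Neurocan, a lectican of nervous tissue, had the levels 4.75, 5.34, 4.30 and -5.09 on NSC, NSC-Ceacam1L, NSCL61 and NSCL61-Ceacam1sh (A_55_P2453279, chromosome 8, 72618955 to 72619014, minus strand, mm9). It was highest on NSC-Ceacam1L, by 0.60 ± 0.20 over NSC, and not well above background on NSCL61-Ceacam1sh, where it was at least 531-fold lower than on NSCL61. Between NSCL61 and NSC it differed by -0.45 ± 0.20. Both of these smaller differences were beyond the spot error and short of 2-fold.

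Versican, the lectican of provisional and migratory matrix, was higher on NSCL61-Ceacam1sh than on NSCL61, where Bcan and Ncan were lower, and like Bcan it was lower on NSCL61 than on NSC. Its probe used (A_55_P1960208, chromosome 13, 89851810 to 89851869, minus strand, mm9) read 0.24 on NSC and 0.14 with Ceacam1L, then -0.92 on NSCL61 and 0.83 with the hairpin. NSCL61 was thus the lowest array, by -1.16 ± 0.21 from NSC, and NSCL61-Ceacam1sh the highest, by 1.75 ± 0.21 over NSCL61, while the NSC and NSC-Ceacam1L arrays did not differ beyond the error (-0.10 ± 0.20). A probe near the 3′ end of the long transcript (A_55_P1960202) gave 0.29, 0.11, -3.55 and 1.69. It shared the directions with larger sizes, -3.84 ± 0.25 for NSCL61 minus NSC and 5.24 ± 0.25, or 37.9-fold, for NSCL61-Ceacam1sh minus NSCL61. The file lists 4 RefSeq transcripts with each of these probes, of which 3 are shared. The remaining probe (A_52_P1044655), listed with 1 RefSeq transcript and lying 1738 bases downstream of the first in both the transcript and the genome, was not well above background on any array.
Vcan, probe used (A_55_P1960208): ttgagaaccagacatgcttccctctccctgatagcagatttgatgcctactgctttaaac
The sequence is printed because the size of the versican difference depends on which stretch of the transcript is read.

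Aggrecan, best known from cartilage and from perineuronal nets, had -4.09, -4.44, -4.14 and -4.37 in the same order of arrays (A_51_P462271, chromosome 7, 86259741 to 86259801, plus strand, mm9). It was well above background on NSC-Ceacam1L and NSCL61 and not on the other two, and no comparison was beyond the error, at -0.35 ± 0.47, -0.23 ± 0.44 and -0.05 ± 0.46. Hapln1 was not well above background on any array, with levels from -6.72 to -5.90 (A_66_P117730, chromosome 13, 89751096 to 89751155, plus strand, mm9). The lecticans were thus seen without a detectable signal of this link protein.

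Cspg5, also called neuroglycan C, is a neural membrane proteoglycan with an EGF-like domain. Its level was 5.75 on NSC and 5.69 with Ceacam1L, then 5.99 on NSCL61 and -3.77 with the hairpin (A_55_P2046744, chromosome 9, 110164962 to 110165021, plus strand, mm9). The first 3 arrays lay close together, with NSC-Ceacam1L minus NSC at -0.07 ± 0.20 and NSCL61 minus NSC at 0.23 ± 0.20. It was well above background on all 4 arrays, so the difference of -9.76 ± 0.27 on NSCL61-Ceacam1sh, 866-fold lower than on NSCL61, was measured on both sides. Of the 12958 genes well above background on both of these arrays, 3 had a more negative difference. This count leaves out genes dim on either array. Bcan and Ptprz1 are among those left out, and their bounds, at least 2883-fold and 1513-fold lower, were larger than the difference of Cspg5.

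Ptprz1 encodes a receptor-type tyrosine phosphatase that carries chondroitin sulfate, and its secreted extracellular form is phosphacan. Neighbouring probes gave nearly the same levels. A_55_P2000439 (chromosome 6, 23002114 to 23002173, plus strand, mm9) read 6.20, 6.17, 5.81 and -5.89, and A_51_P206405 read 6.20, 6.16, 5.86 and -6.79. Both were bright on 3 arrays and not well above background on NSCL61-Ceacam1sh, where the bounds against NSCL61 were at least 1513-fold lower for the first and at least 1557-fold lower for the other. NSC-Ceacam1L minus NSC was -0.03 ± 0.20, and NSCL61 minus NSC was -0.38 ± 0.20. The remaining probe, A_55_P2173682, listed with no RefSeq transcript, was not well above background on any array.

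Tenascin-C was read by a pair of probes, and it differed beyond the spot error in all 3 comparisons. A_52_P355169 (chromosome 4, 63674248 to 63675011, minus strand, mm9) read 0.73 on NSC, -1.73 with Ceacam1L added, -0.20 on NSCL61 and 1.51 on its hairpin array. A_55_P2421597 (chromosome 4, 63643728 to 63643787, minus strand) read -0.36, -2.42, -1.73 and 0.35. Both put NSC-Ceacam1L lowest and NSCL61-Ceacam1sh highest.
Tnc, probe used (A_52_P355169): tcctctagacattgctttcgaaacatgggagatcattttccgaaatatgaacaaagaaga
Tnc, other probe (A_55_P2421597): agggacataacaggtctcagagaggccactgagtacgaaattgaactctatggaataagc
The sequences show that these are separate stretches of the transcript, so the directions were read by different probes on the same RNA. On NSC-Ceacam1L, Tnc was lower than on NSC by -2.46 ± 0.21 with the first probe and -2.06 ± 0.22 with the second. Of 13808 genes well above background on both NSC arrays, 27 had a more negative difference than Tnc. On NSCL61-Ceacam1sh it was higher than on NSCL61 by 1.71 ± 0.20 and 2.08 ± 0.21. NSCL61 minus NSC was -0.93 ± 0.21 with the probe used, short of 2-fold, and -1.37 ± 0.21 with the other.

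Tenascin-R, made by oligodendrocyte-lineage cells and some neurons, had levels of -1.38 on NSC and 0.66 with Ceacam1L, then -1.77 on NSCL61 and -6.62 with the hairpin (A_55_P1974957, chromosome 1, 161854449 to 161854508, plus strand, mm9). NSC-Ceacam1L was the highest array, by 2.05 ± 0.21 over NSC, and 182 of 13808 genes had a more positive difference. NSCL61-Ceacam1sh was not well above background and at least 7.90-fold lower than NSCL61, while NSCL61 and NSC differed by -0.38 ± 0.22. Tnr and Tnc thus stood in opposite directions in both comparisons that involve Ceacam1, and each tenascin also had opposite directions in these comparisons.

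Counted over the 9 genes with NSCL61-Ceacam1sh against NSCL61, 8 were seen, 5 were lower (Bcan, Ncan, Cspg5, Ptprz1, Tnr), 2 were higher (Vcan, Tnc) and Acan was neither. Over all 15605 genes seen, 24.2% were lower and 23.4% were higher by the same rule. The median difference of the 8 genes was -7.12, or -6.02 with each dim gene at its bound, against 0.01 for all genes seen. For NSC-Ceacam1L against NSC, 1 of 8 was higher (Tnr) and 1 lower (Tnc), with 10.5% and 6.05% of 15311 genes as background and a median of -0.06 against -0.10 over all genes. For NSCL61 against NSC, none of 8 was higher and 2 were lower (Bcan, Vcan), with 14.4% and 14.0% of 15296 genes as background and a median of -0.41 against 0.03. The shares in the last 2 comparisons rest on 1 or 2 genes each and were not set apart from the background. The same percentages over all genes are the background for the counts of related genes below.

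**Figure D2:**
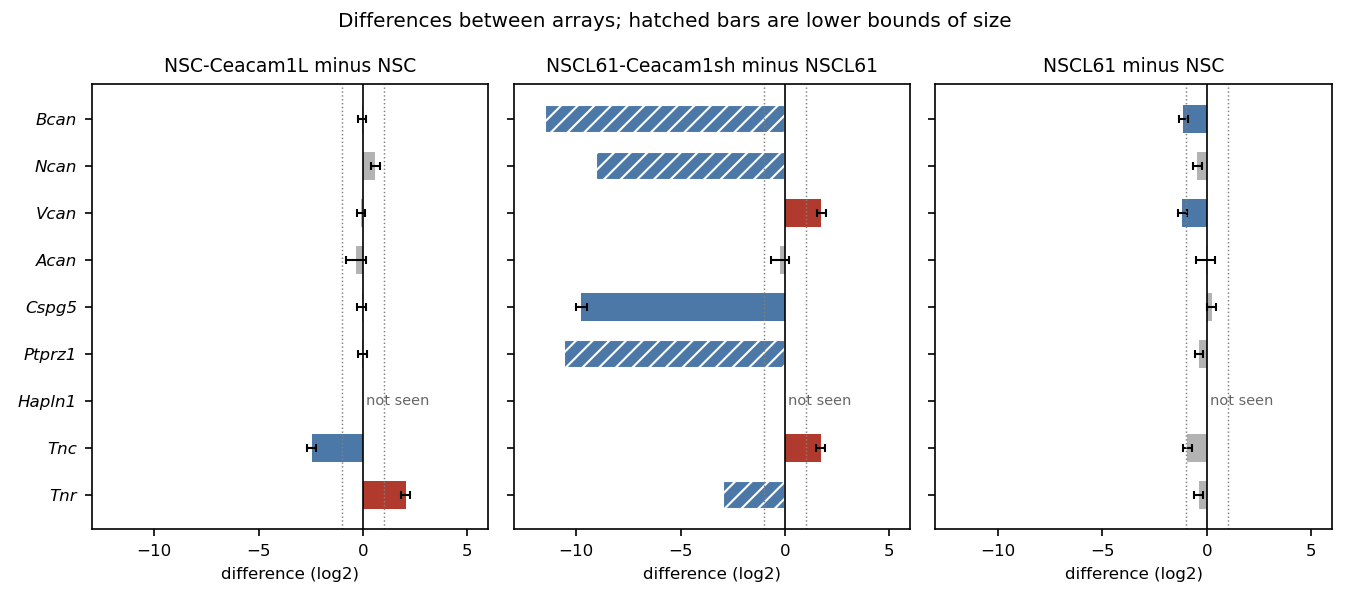
Log2 difference of each of the 9 genes in the 3 comparisons, with the modelled error as bars. Red is higher, blue lower, grey neither, dotted lines mark 2-fold, and a hatched bar is the smallest size that the background of the dim array allows. The long blue bars of Bcan, Ncan, Cspg5 and Ptprz1 appear in the middle panel, beside red bars for Vcan and Tnc.

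Promoter sequence was looked at because Bcan, Ncan, Ptprz1 and Tnr were lower and Vcan and Tnc higher on the same array. RefSeq windows of GRCm38.p6, from 250 bases before to 50 bases after an annotated start, matched 8 of the 9 genes. The 250 bases before the start are printed 5′ to 3′ on the gene's strand, with every match to CANNTG, the E-box core bound by helix-loop-helix factors, in capitals.
Bcan, chr3:88000357-88000606, minus strand: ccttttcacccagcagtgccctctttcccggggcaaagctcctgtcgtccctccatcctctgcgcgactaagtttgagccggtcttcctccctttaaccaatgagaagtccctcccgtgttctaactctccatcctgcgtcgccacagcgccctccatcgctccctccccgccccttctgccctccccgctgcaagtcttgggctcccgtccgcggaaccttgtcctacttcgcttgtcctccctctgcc
Ncan, chr8:70120845-70121094, minus strand: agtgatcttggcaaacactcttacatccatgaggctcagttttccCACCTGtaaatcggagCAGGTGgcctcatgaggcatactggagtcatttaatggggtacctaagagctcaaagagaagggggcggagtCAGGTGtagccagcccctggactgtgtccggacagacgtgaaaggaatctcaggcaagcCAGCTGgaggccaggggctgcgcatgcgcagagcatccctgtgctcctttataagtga
Ptprz1, chr6:22875252-22875501, plus strand: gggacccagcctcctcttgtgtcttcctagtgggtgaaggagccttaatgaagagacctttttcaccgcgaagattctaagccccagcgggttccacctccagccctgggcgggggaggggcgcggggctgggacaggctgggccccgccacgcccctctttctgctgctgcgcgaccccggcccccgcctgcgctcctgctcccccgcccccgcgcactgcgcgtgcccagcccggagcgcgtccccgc
Tnr, chr1:159523519-159523768, plus strand: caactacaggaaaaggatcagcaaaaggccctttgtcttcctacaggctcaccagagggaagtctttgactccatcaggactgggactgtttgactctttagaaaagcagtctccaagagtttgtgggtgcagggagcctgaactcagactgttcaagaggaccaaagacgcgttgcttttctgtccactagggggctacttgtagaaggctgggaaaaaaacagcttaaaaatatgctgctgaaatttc
Vcan, chr13:89742513-89742762, minus strand: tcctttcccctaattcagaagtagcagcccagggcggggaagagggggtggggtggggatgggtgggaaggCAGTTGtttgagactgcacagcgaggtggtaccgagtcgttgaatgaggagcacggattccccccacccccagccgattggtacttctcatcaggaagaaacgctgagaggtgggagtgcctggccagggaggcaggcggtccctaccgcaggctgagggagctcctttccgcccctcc
Tnc, chr4:64047016-64047265, minus strand: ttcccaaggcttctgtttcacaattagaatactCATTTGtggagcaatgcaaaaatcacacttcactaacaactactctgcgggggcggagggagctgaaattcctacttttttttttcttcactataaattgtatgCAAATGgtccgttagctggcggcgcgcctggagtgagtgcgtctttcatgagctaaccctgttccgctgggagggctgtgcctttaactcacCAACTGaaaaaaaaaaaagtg
CANNTG reads the same on both strands. It had 4 matches before the Ncan start, 3 before the Tnc start and 1 before the Vcan start, and none before the Bcan, Ptprz1 or Tnr start, and 72.3% of all 32851 windows of this kind hold at least 1 match. Of the lower genes shown, Ncan alone held a match, and both higher genes held at least 1, which with so few windows is a description only. TATAAA, searched on both strands, matched in the Ncan and Tnc windows, with 13.6% of all windows as background. The SOX-type motif ACAAAG matched in the Tnr window (18.7% of all windows), and TTGGC, a nuclear factor I half-site, in the windows of Ncan, Acan and 1 of the 2 overlapping Tnc windows (46.7%). Motifs for AP-1 (TGANTCA, 7.81%), STAT (TTCNNNGAA, 8.30%), ACAATG (12.6%), CACGTG, which is itself a form of CANNTG (7.15%), and the whole nuclear factor I palindrome (0.0365%) had no match in any of these windows. GC content was 64.0% and 71.7% in the Bcan and Ptprz1 windows, 56.7% in Ncan, 48.0% in Tnr, 61.0% in Vcan and 47.3% in the Tnc window printed, against a median of 52.7% over all windows.

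The list for building and sulfating the chondroitin chains held enzymes and sugar transporters. Of its 25 genes seen on the NSCL61 arrays, 6 were higher and 7 lower on NSCL61-Ceacam1sh, with a median of 0.27. These shares were near the 23.4% and 24.2% over all genes. Those lower included B3gat1 (at least 37.1-fold, but -1.18 with its second probe) and B3gat2 (at least 28.9-fold), both glucuronyltransferases of the HNK-1 epitope. The 6-O-sulfotransferase Chst3 (-3.46 ± 0.20) was lower too. Those higher were led by the dermatan 4-O-sulfotransferase Chst14 (3.73 ± 0.23) and the dermatan sulfate epimerases Dsel (2.03 ± 0.21) and Dse (1.98 ± 0.28). The other higher genes were the sulfotransferases Chst12 (1.45 ± 0.21) and Chst15 (1.14 ± 0.27) and the chain-starting enzyme Csgalnact2 (1.04 ± 0.20). The other lower genes were Chst11 (-2.49 ± 0.21), Xylt1 (-1.92 ± 0.30), B3gat3 (-1.29 ± 0.20) and Csgalnact1 (-1.19 ± 0.21). These other genes were named after their values were seen. With NSC-Ceacam1L against NSC, 2 of 26 were higher and none lower. Papss2, which makes the sulfate donor, differed by 3.61 ± 0.25, while Slc35d2 was dim on NSC with a bound of only 1.11-fold. With NSCL61 against NSC, 3 of 25 were higher, among them Chst3 (2.17 ± 0.20) and, with a bound under 2-fold, Dse, and 6 lower, led by Chst7 (-3.78 ± 0.20) and Chst14 (-2.05 ± 0.23).

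The list of lectican partners and other chondroitin sulfate core proteins had 19 genes seen on the NSCL61 arrays. Of these, 7 were higher and 4 lower on NSCL61-Ceacam1sh, beside 23.4% and 24.2% over all genes. The list also held the heparan sulfate proteoglycan Gpc1, counted as higher (1.45 ± 0.20). It held Chpf as well, which is also in the chain synthesis list and was neither. The small leucine-rich proteoglycans Dcn (decorin, at least 248-fold) and Bgn (biglycan, 3.88 ± 0.21) and the part-time proteoglycan Tgfbr3 (3.25 ± 0.25) led the higher ones. Sdc3, the neural syndecan (-3.45 ± 0.20), Cspg4, also called NG2 (-3.07 ± 0.44), and Aplp2 (-2.46 ± 0.20) led the lower ones. Cspg4 was not well above background on NSCL61-Ceacam1sh, so its value is a measured difference against a dim signal. With Ceacam1L, Sdc2 was higher (1.03 ± 0.20) and Sdc1 lower (-1.35 ± 0.21), and the other 16 of 18 were neither. NSCL61 against NSC had 6 of 18 higher, led by Cd44 (3.03 ± 0.20), though Tgfbr3 and Tnn were dim on NSC and 4 of the 6 hold at their bound or were measured on both arrays. In the same comparison 3 were lower, led by Spock2 (-3.63 ± 0.28) and Cspg4 (-2.82 ± 0.21).

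Proteases that cut these proteoglycans, and their inhibitors, had 6 higher and 5 lower of 13 on NSCL61-Ceacam1sh, where Adamts8, 1 of the 5, has no bound. The shares over all genes were 23.4% higher and 24.2% lower. The matrix metalloproteases Mmp3 (at least 1691-fold) and Mmp2 (0.21 on NSCL61-Ceacam1sh against -3.79 on NSCL61) and the inhibitor Timp1 (7.01 ± 0.21) were higher. The lectican-cleaving aggrecanase Adamts4 was lower (-3.42 ± 0.20), with levels of 5.49 on NSCL61 and 2.07 on NSCL61-Ceacam1sh and a smaller difference of -1.99 with its second probe, and so were the inhibitors Timp4 (at least 28.0-fold) and Timp3 (-3.55 ± 0.20). Of 12 seen on the NSC arrays, 5 were higher with Ceacam1L and none lower, beside 10.5% and 6.05% over all genes. Timp2 (1.57 ± 0.20) and Mmp14 (1.02 ± 0.21) were measured on both arrays, while Adamts5, Adamts15 and Mmp2 were dim on NSC with bounds under 2-fold. NSCL61 had 7 of 12 higher than NSC, among them Timp3 (3.92 ± 0.20) and Adamts4 (1.89 ± 0.20), beside 14.4% over all genes. Without Adamts5 and Mmp2, which were dim on NSC and do not reach 2-fold by a bound, the count was 5. Lower were Timp4 (-4.20 ± 0.20), Timp1 (-1.14 ± 0.21) and Adamts8 (-1.69 ± 0.22), the last of which had 0.085 with its second probe.

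Receptors and ligands of these matrix proteins had 12 lower and 6 higher of 24 on NSCL61-Ceacam1sh, with a median of -0.86, and 11 of the 12 without Ptprd, which has no bound. The shares over all genes were 24.2% lower and 23.4% higher. The Ptprz1 and tenascin partners Cntn1 (contactin, -7.35 ± 0.39) and Nrcam (-6.43 ± 0.20) and the Nogo receptor homologue Rtn4rl1 (at least 34.0-fold) were lower. Cntn1 was not well above background on NSCL61-Ceacam1sh, so its value is a measured difference against a dim signal. Integrin Itgb3 (at least 34.9-fold) and the fibulins Fbln2 (4.27 ± 0.20) and Fbln1 (2.71 ± 0.21), which bind lecticans, were higher. With Ceacam1L, 5 of 24 were higher, led by Nfasc (2.27 ± 0.21), a neural adhesion molecule, and 2 lower, Itgb6 (at least 4.71-fold) and Fbln2 (-1.40 ± 0.20). NSCL61 against NSC had 5 of 24 higher, led by fibronectin Fn1 (3.31 ± 0.20), and 9 lower, led by Fbln2 (-6.11 ± 0.20).

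Hyaluronan is the chain on which lecticans are strung. Of 8 of its genes seen on the NSCL61 arrays, 2 were higher (Hmmr, 2.05 ± 0.20, and the hyaluronan receptor Cd44, 1.13 ± 0.20, or 3.04 with its second probe) and 2 lower (the hyaluronidase Hyal1, -3.72 ± 0.31, and Tnfaip6, -1.99 ± 0.21). The synthase Has2, which was higher on NSCL61 than on NSC (1.39 ± 0.21), differed by -0.17 ± 0.20 on NSCL61-Ceacam1sh, and this value was looked up after the counts were seen. With Ceacam1L, 1 of 9 was lower (Hmmr, just past 2-fold, at 1.64 against 2.64 on NSC). The 1 counted as higher, Hyal3, was dim on NSC and has no bound.

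**Figure D3:**
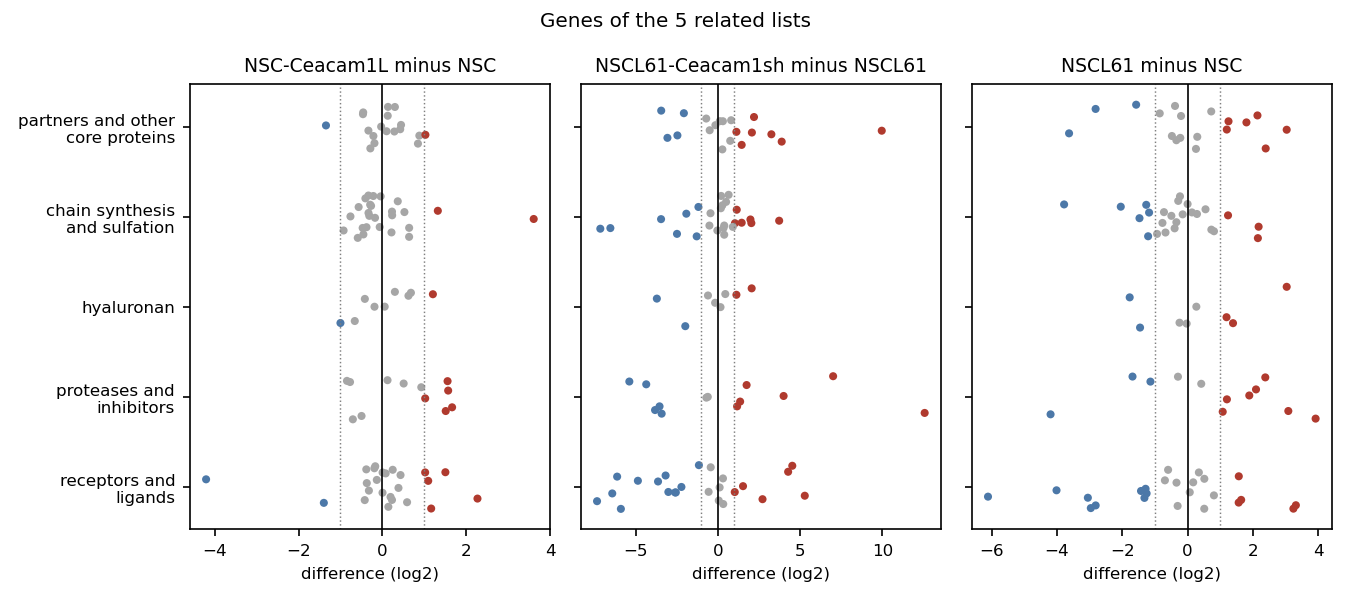
Log2 difference of each gene seen in 5 lists of related genes, 1 point per gene, in the 3 comparisons. Red is higher, blue lower and grey neither, dotted lines mark 2-fold, points are spread vertically for legibility, and a gene dim on 1 array is drawn at its measured value, not its bound. In the middle panel the receptors and ligands hold 12 blue points against 6 red, while the other lists hold both colours in nearer numbers.

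The genes whose 4-array profile lay nearest to each member were found by the root mean square difference after centring, among 16569 genes and over 4 arrays, with dim signals set to the background limit. For Bcan they were Olig1, Fabp7 and Hes5 (0.31 to 0.42), for Ncan Dbx2, Kif1a and Trim9 (0.10 to 0.17), for Cspg5 Galnt16, Kcnip3 and Lrrc4b (0.26 to 0.37), and for Ptprz1 Rtn1, Kcnj10 and Lrrc4b (0.30 to 0.33). Tnr was nearest to Nfasc (0.13), followed by St8sia5 and Ccdc92b, and Tnc to Hk2 (0.26), Galk1 and Gm13315. Vcan was nearest to Atf7ip, Srsf6 and Xkr8 (0.01 to 0.06), and Acan to Tut4, Sdhb and Ermp1 (0.02). Among the members themselves, Ncan and Cspg5 (0.47) and Cspg5 and Ptprz1 (0.59) lay closest. A profile here is 4 values, and the distances describe these arrays only.

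The genes on either side of the 5 lower members were mixed on NSCL61-Ceacam1sh, where 8 were seen, 4 of them lower, 2 higher and 2 neither. Over all genes seen in this comparison, 24.2% were lower and 23.4% higher, and 8 genes are too few to set apart from these shares. Bcan lies next to Nes, the intermediate filament gene of neural stem cells, which read 5.68, 4.79, 6.13 and 4.95 and so was lower by 1.18 on NSCL61-Ceacam1sh, yet still far above background. Next to Ncan lies the link protein gene Hapln4, which was higher on NSCL61-Ceacam1sh by 2.07 ± 0.32 where Ncan was lower. Vcan lies next to Hapln1, which stayed at background, and Acan next to Hapln3, which was neither higher nor lower in the 3 comparisons. These neighbours were picked with their values known.

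Markers of cell types were set beside these values, as sums of scaled signals in units of each array's 75th percentile. The 8 astrocyte markers summed to 330.2 on NSC, 574 with Ceacam1L added, 715 on NSCL61 and 3.91 on its hairpin array, where Gfap, Slc1a2 and S100b were not well above background. The 6 oligodendrocyte precursor markers summed to 233, 257, 128 and 2.29, with Olig1, Olig2, Cspg4 and Gpr17 not well above background on NSCL61-Ceacam1sh. On that array 5 of the 6 were lower than on NSCL61, and Pdgfra was neither (-0.58 ± 0.20). Pdgfra was also the brightest of the 6 there (level 1.03). The 10 neural stem markers summed to 851, 679, 937 and 321, and 9 of 10 were well above background on NSCL61-Ceacam1sh, all but Hes5. Against NSCL61, 6 of the 10 were lower there, 1 was higher and 3 were neither, with a median of -1.47. Vim was the brightest of them on NSCL61-Ceacam1sh (level 8.13) and was neither, while Fabp7 had the most negative difference (-12.4 ± 0.31). The 9 fibroblast markers, Dcn among them, ran from 0.408 on NSCL61 to 21.7 on NSCL61-Ceacam1sh, with 5 of 9 well above background there and Lum, Thy1, Postn and Fap not. They had 2.36 on NSC and 13.6 on NSC-Ceacam1L. These sums rest on different genes, as Thy1 was the brightest of the 9 on NSC-Ceacam1L (level 3.71) and Dcn on NSCL61-Ceacam1sh (3.31). The 7 neuronal markers summed to 25.8, 29.4, 62.3 and 9.42 in the same order, and all 5 seen on the NSCL61 arrays were lower on NSCL61-Ceacam1sh, with a median of -4.00. The 7 microglial markers (14.7 to 26.8) and the 6 endothelial ones (8.63 to 13.9) also had their lowest sums there, though the endothelial sum was nearly the same on NSC-Ceacam1L (8.66). Itgam was the brightest of the microglial markers on every array, and Kdr of the endothelial ones. Aif1, P2ry12, Ptprc, Tek, Cldn5 and Tie1 were not well above background on any array. Of 4 microglial markers seen on the NSCL61 arrays, 2 were lower on NSCL61-Ceacam1sh, 1 was higher (Tmem119, 5.19 ± 0.29) and 1 was neither. Of 3 endothelial markers seen, 1 was lower and 2 were neither. Thus the sums of astrocyte, oligodendrocyte precursor and neuronal markers were low on the array where Bcan, Ncan, Cspg5, Ptprz1 and Tnr were low. The neural stem sum was also lowest on that array, and the part of cell composition in the differences was not tested.

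**Figure D4:**
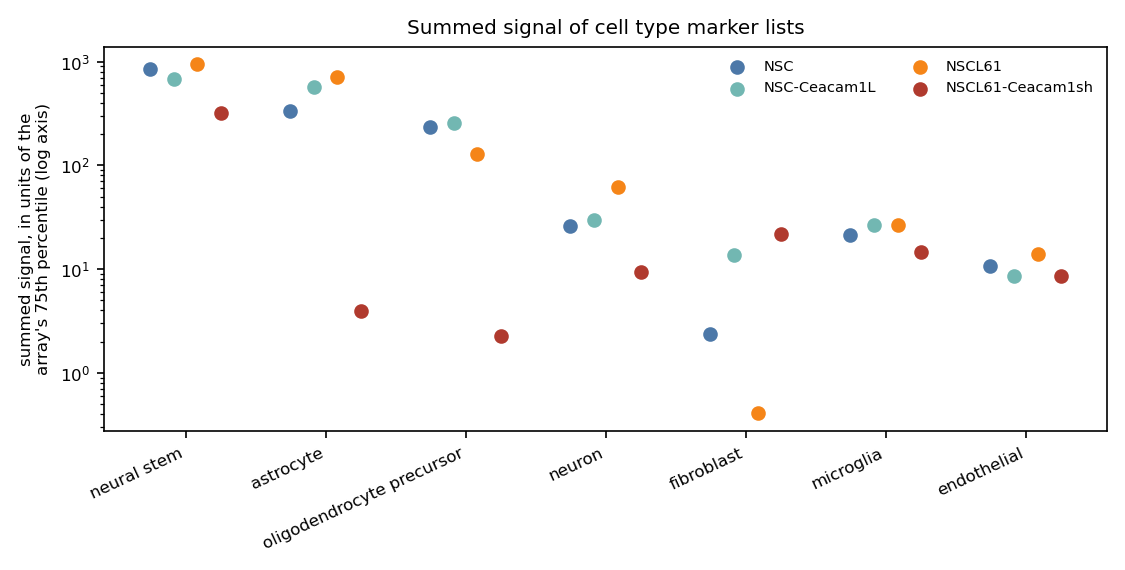
Summed signal of 7 cell type marker lists on the 4 arrays, in units of each array's 75th percentile on a log axis, 1 point per array. The astrocyte and oligodendrocyte precursor sums lie at 128 or more on the first 3 arrays and at 3.91 and 2.29 on NSCL61-Ceacam1sh, while the fibroblast sum is highest there.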

How the data were processed

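The 4 scanner files hold intensity values per spot (processed signal, background-subtracted and detrended) that the authors made with Agilent Feature Extraction, version 10.7.3.1 per the file headers and 9.1 per the submitters' processing notes. Deposited processed values, given as log2, were checked: their differences between arrays had slopes of 1.00 against the unscaled signals, so scale and direction are known and the centring is unknown (column medians 0.25, -0.20, 0.00 and 0.03 in the order NSC, NSC-Ceacam1L, NSCL61, NSCL61-Ceacam1sh), and they served as an alternative only. The deposited NSC file holds at most 3 significant digits.

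Outlier spots (143 to 187 per array) were left out, spots of a probe were averaged as log2 values, and each array was scaled to its 75th percentile. Of several probes, the one with the highest mean was used. Probes were named through RefSeq accessions, symbols or older symbols of GRCm38.p6, and 24300 stayed unnamed. Groups came from sample titles. Data were simulated with 200 changed genes of 22314, on the NSCL61 against NSC design, with spot error only and no variation between cultures. They gave 100 of 100 calls at a size of 1.5 and 100 of 100 at 3, and 35 of 12529 unchanged genes were called. The changed genes were picked far enough above the background limit to stay above it, so calls against dim signals were not simulated. The members and lists were chosen with earlier results of these data known. List genes named are at most 3 per list, direction and comparison, those that differ most among the counted ones with dim signals at the background limit. Exceptions are genes named as a limit of a count, and those said above to be named or looked up after values or counts were seen. Alternatives covered background correction, scaling, filters, probes and thresholds, with limma 3.58.1 in R 4.3.3 for normexp, quantile and cyclic loess. Protein sequences were not used here.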

Additional observations from a re-analysis of the deposited data

How the results depend on the processing

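The higher and lower calls of the members in the 3 comparisons were recomputed under 8 other background corrections, scalings and value sets. All kept their direction under all 8, and all stayed past 2-fold except Bcan for NSCL61 minus NSC, which was -0.91 under quantile normalization. Tnc in that comparison passed 2-fold under spike-in scaling only (-1.16). Uncalled members changed sign in places, for instance Bcan for NSC-Ceacam1L minus NSC, from -0.05 to 0.44 under quantile normalization. The median over members for NSC-Ceacam1L minus NSC was 0.25 under cyclic loess, 0.40 under quantile normalization and 0.32 under spike-in scaling, and for NSCL61 minus NSC it was -0.65 under spike-in scaling. For NSCL61-Ceacam1sh minus NSCL61 it was -4.85 with no filter on dim probes, -4.45 with normexp, and 1.71, the reverse, over genes seen on both arrays. This last setting keeps 3 members and leaves 1 lower, Cspg5, because the others were dim on 1 array. Calls from 1.5-fold gave 2 higher members for NSC-Ceacam1L minus NSC. Calls from 4-fold gave 0 higher for NSCL61-Ceacam1sh minus NSCL61 and 0 lower for NSCL61 minus NSC, where quantile normalization gave 1 lower. With its second probe Adamts8 for NSCL61 minus NSC reversed (0.085), which takes 1 of the 3 lower proteases away, and Adamts4 for NSCL61-Ceacam1sh minus NSCL61 was -1.99. Normexp shrank differences against dim signals, for instance Tnr from -4.85 to -1.79. Some list genes called higher or lower above fell short of 2-fold with normexp. Examples are Mmp14 (0.87) and Hmmr (-0.93) for NSC-Ceacam1L minus NSC, and Dse (0.34) for NSCL61 minus NSC. Except where stated, the cause was not tested.

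The scaling moved the median of all genes for NSC-Ceacam1L minus NSC by 0.37 (spike-in), 0.23 (cyclic loess), 0.17 (percentile over probes seen on all arrays) and 0.13 (quantile). For NSCL61-Ceacam1sh minus NSCL61 it moved by 0.41 (median scaling), 0.43 (spike-in) and -0.18 (percentile over probes seen on all arrays), and for NSCL61 minus NSC by -0.23 (spike-in). Of all calls, the higher ones made up 63.4%, 49.2% and 50.7% in the 3 comparisons. They made up 84.2%, 64.9% and 39.6% under spike-in scaling, 76.7% for the first under cyclic loess, 75.4% with the percentile over probes seen on all arrays, and 64.4% for the second under median scaling. No paired analysis was possible because each group had 1 array. Signals at background limit Acan, Hapln1 and every bound given.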
